A study of Homo sapiens with 19 samples.

Results

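The genes described here are the mitochondrial carriers of the SLC25 family and the uncoupling proteins. They were chosen by name, as every protein-coding gene whose symbol is SLC25A followed by a number together with UCP1, UCP2 and UCP3, which gave 51 of the 20144 protein-coding genes of the annotation. Their values are ERRα peaks, and a peak was assigned to a gene when its centre lay within 20 kb of a transcription start of any transcript of the gene. The study mapped ERRα binding by ChIP-seq in HER2-positive breast cancer cell lines, and each of its 8 conditions has 1 peak list made from 13 ChIP and 6 input libraries. SKBr3 and BT-474 cells were starved of serum for 24 h and received PBS as vehicle, 100 μM EGF or 100 μM HRG (heregulin) for 90 min. pSKBr3 cells are the untreated parental line, and LRSKBr3 cells are a lapatinib-resistant line derived from SKBr3 and kept in 2 μM lapatinib, an inhibitor of EGFR and HER2, so that the drug and the resistant state cannot be told apart in that pair. The SKBr3, pSKBr3 and LRSKBr3 lists pool 2 ChIP libraries each, whereas each BT-474 list rests on 1 ChIP library and shares the input of the vehicle-treated cells.

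Most SLC25 proteins sit in the inner membrane of the mitochondrion, and the family exchanges nucleotides, phosphate, carboxylates, amino acids, acylcarnitines and cofactors with the cytosol. The uncoupling proteins belong to the same family, and UCP1 is the one that lets protons back across the membrane in brown fat to release heat. ERRα is an orphan nuclear receptor known for its control of mitochondrial energy metabolism, and it binds DNA at an extended half-site called the ERR response element (ERRE).

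The ERRE was sought as the word TCAAGGTCA, on both strands, within 100 bp of the centre of each peak. It was present at 8 of the 43 carrier genes that had any peak (18.6%, against 21.9% of the 17080 protein-coding genes with any peak), at 9 distinct positions. The words at UCP2 and SLC25A23 are shown because these genes rank among the carriers with the strongest peaks, and those at SLC25A25 and SLC25A30 because the binding there differed between the cell lines (the latter pair of genes was chosen after its values were seen). Each line is GRCh37 (hg19) sequence, 5′ to 3′ on the strand that carries the word, with the word in capitals and 10 bases to each side.
UCP2, chr11:73691910-73691938, minus strand: gcaacccagcTCAAGGTCAggaatgtgac
SLC25A23, chr19:6458583-6458611, plus strand: agtcaccagtTCAAGGTCAcagaaccagg
SLC25A25, first word, chr9:130840370-130840398, minus strand: agtcatttgtTCAAGGTCActcagctagc
SLC25A25, second word, chr9:130840934-130840962, minus strand: tttcacaactTCAAGGTCAactctgtact
SLC25A30, chr13:46008872-46008900, minus strand: cgagtcactgTCAAGGTCAcaggtggctg
The UCP2 word lies in an exon of the gene, 59 bp from one of its starts, and was covered by a peak in 7 lists. It was within 100 bp of the peak centre only in pSKBr3 and LRSKBr3. The SLC25A23 word lies in an intron, 1149 bp from a start, and was covered in all 8 lists, within 100 bp of the centre in 5. The first SLC25A25 word, in an intron 9873 bp from a start, was covered in 8 lists and the second, 10437 bp from a start, in 7. The first was within 100 bp of the centre in pSKBr3 alone, the second in SKBr3 vehicle, SKBr3 EGF and BT-474 HRG. The SLC25A30 word is intergenic, 16296 bp from the nearest start of the gene, and was covered in 5 lists. It was within 100 bp of the centre in SKBr3 HRG, BT-474 vehicle and BT-474 HRG.

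Each list holds 22539 (pSKBr3) to 41271 (BT-474 HRG) peaks. The score of a peak is the value given by MACS, −10 log10 of its P value, with a lowest value of 50 in the lists. A score of 3100 was shared by 478 to 1156 peaks of a list, so that strong peaks are only coarsely ranked. Scores depend on depth, which is unknown because the lists hold no tag counts, and they were used as percentiles within their own list, where 100 would be the strongest peak. A percentile also depends on the length of the list, because the same rank from the top gives a higher percentile in a longer list. The libraries were pooled before peak calling in the SKBr3, pSKBr3 and LRSKBr3 lists and the BT-474 lists have 1 library each, so there is no replicate error and no test of any difference below, and a peak that is called in 1 list and not in another may lie just on either side of the calling threshold.

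Carrier genes were bound in every list, and within 1 kb of a start in a larger share than all genes. Within 20 kb of a start, a peak was present for 29 of the 51 genes in SKBr3 vehicle (background over all protein-coding genes 54.2%), for 32 with EGF (56.3%) and for 39 with HRG (66.4%). In BT-474 cells the numbers were 31 with vehicle (53%), 24 with EGF (42.3%) and 28 with HRG (55.4%). In pSKBr3 cells 34 genes had a peak (57.2%) and in LRSKBr3 cells 35 (70%). As shares of the 51 genes these are 56.9%, 62.7%, 76.5%, 60.8%, 47.1%, 54.9%, 66.7% and 68.6% in the same order, above the background in 6 lists and below it in BT-474 HRG and LRSKBr3. These last 2 positions depended on the counting, since under the 6 alternatives for distance, starts, threshold, list size and overlap BT-474 HRG was above the background in all 6 (45.1% against 43.2% with 10 kb) and LRSKBr3 in 5 (68.6% against 61.6% with 10 kb). Among genes with at least 60% GC around the canonical start, however, carriers were below all genes of that kind within 20 kb in BT-474 HRG (57.1% against 58.9%), pSKBr3 (64.3% against 65.1%) and LRSKBr3 (69.0% against 78.5%), and above them in the other 5 lists. With the canonical start alone, the share of carriers within 20 kb was above that of all genes in all 8 lists, for instance 74.5% against 59.2% in SKBr3 HRG and 58.8% against 43.97% in BT-474 vehicle.

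**Figure D1:**
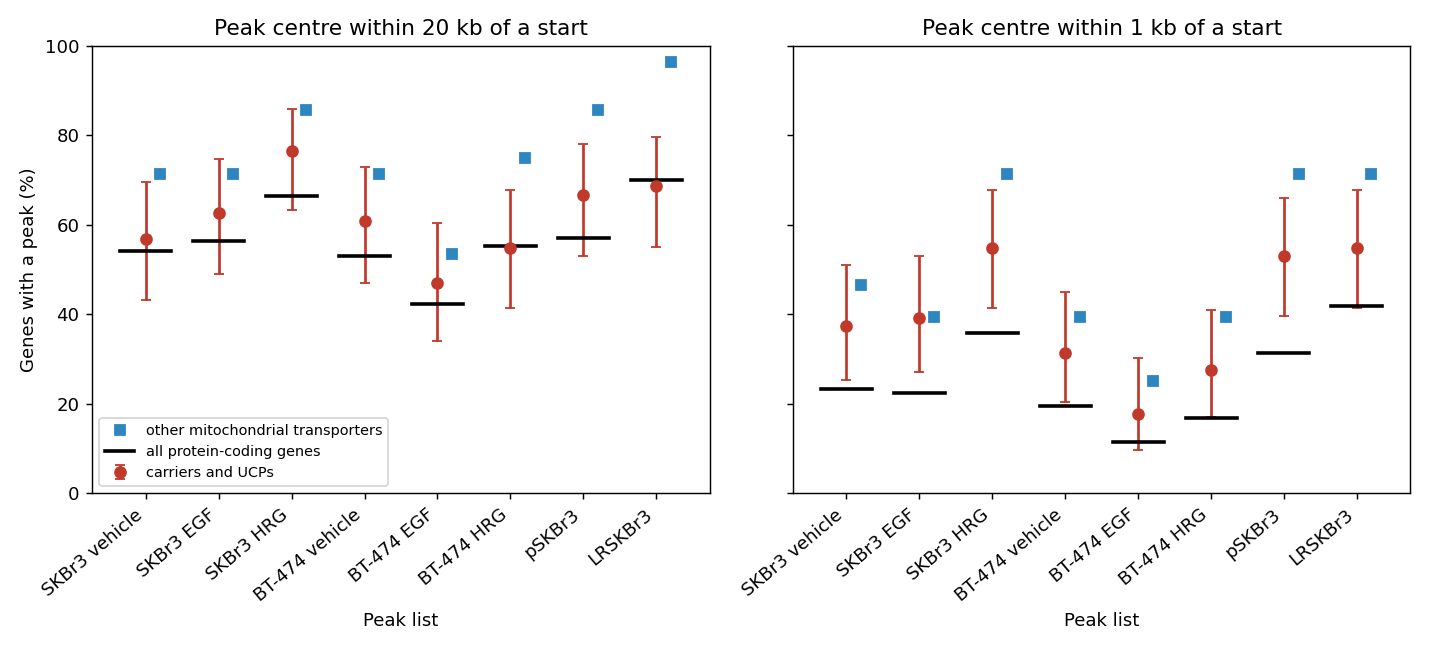
Percentage of genes (y axis) with an ERRα peak centre within 20 kb (left) or 1 kb (right) of a transcription start in each of the 8 peak lists (x axis). Red points are the 51 carriers and uncoupling proteins with Wilson intervals at 95% for counting error, blue squares are 28 other mitochondrial membrane transporters and black lines are all protein-coding genes. At 1 kb the red points lie above the black lines in all 8 lists (37.3% against 23.3% in SKBr3 vehicle), whereas at 20 kb they lie on both sides of them.

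Within 1 kb of a start, a peak was present for 19 carrier genes in SKBr3 vehicle (37.3%, background 23.3%), 20 with EGF (39.2%, background 22.3%) and 28 with HRG (54.9%, background 35.7%). BT-474 cells had 16 such genes with vehicle (31.4%, background 19.4%), 9 with EGF (17.6%, background 11.4%) and 14 with HRG (27.5%, background 16.8%). The pSKBr3 list had 27 (52.9%, background 31.4%) and the LRSKBr3 list 28 (54.9%, background 41.8%). The share of carriers was above that of all genes in each of the 8 lists, by the least in BT-474 EGF. Starts of carrier genes are rich in G and C, with a median GC content of 68.9% over 501 bp for those bound in all 8 lists, beside 66.7% for all genes bound in all 8. Among genes with at least 60% GC around the canonical start, 16 of 42 carriers had a peak within 1 kb in SKBr3 vehicle (38.1%) against 25.9% of 13229 genes, in LRSKBr3 cells 54.8% against 49.7%, and in BT-474 EGF 14.3% against 12.5%, the smallest difference. A second group of genes, 28 other transporters and channels of the mitochondrial membranes, had 46.4% in SKBr3 vehicle and 71.4% in LRSKBr3 cells. Its share was above that of the carriers in each of the 8 lists, though only just in SKBr3 EGF (39.3% against 39.2%). Within 20 kb it was also above them in all 8, for instance 71.4% against 56.9% in SKBr3 vehicle and 96.4% against 68.6% in LRSKBr3.

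Of the 51 genes, 17 had a peak in range in all 8 lists (33.3%, background 26.8%) and 8 had none in any list (15.7%, background 15.2%). With peaks of a P value of at most 1e-10, 10 were bound in all 8 lists, 19.6% against 18.7% of all genes. The 17 are SLC25A1, SLC25A5, SLC25A10, SLC25A12, SLC25A13, SLC25A15, SLC25A18, SLC25A20, SLC25A21, SLC25A23, SLC25A25, SLC25A36, SLC25A39, SLC25A40, SLC25A44, SLC25A45 and SLC25A53. For 4 of them, SLC25A5, SLC25A12, SLC25A40 and SLC25A53, each list had a peak within 1 kb of a start (background 6.55%). The 8 without a peak are SLC25A6, SLC25A14, SLC25A27, SLC25A31, SLC25A41, SLC25A47, SLC25A52 and UCP1. SLC25A6 lies in the first pseudoautosomal region of the sex chromosomes, which holds 15 protein-coding genes and in which no list has a peak, so nothing about its binding can be read from these lists. Several of the others are known for expression in a narrow range of tissues, UCP1 in brown fat, SLC25A31 in the testis and SLC25A47 in the liver. Any link between such expression and the missing peaks was not tested. The muscle forms SLC25A4 and UCP3 had a peak in range in 6 and 3 lists.

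**Figure D2:**
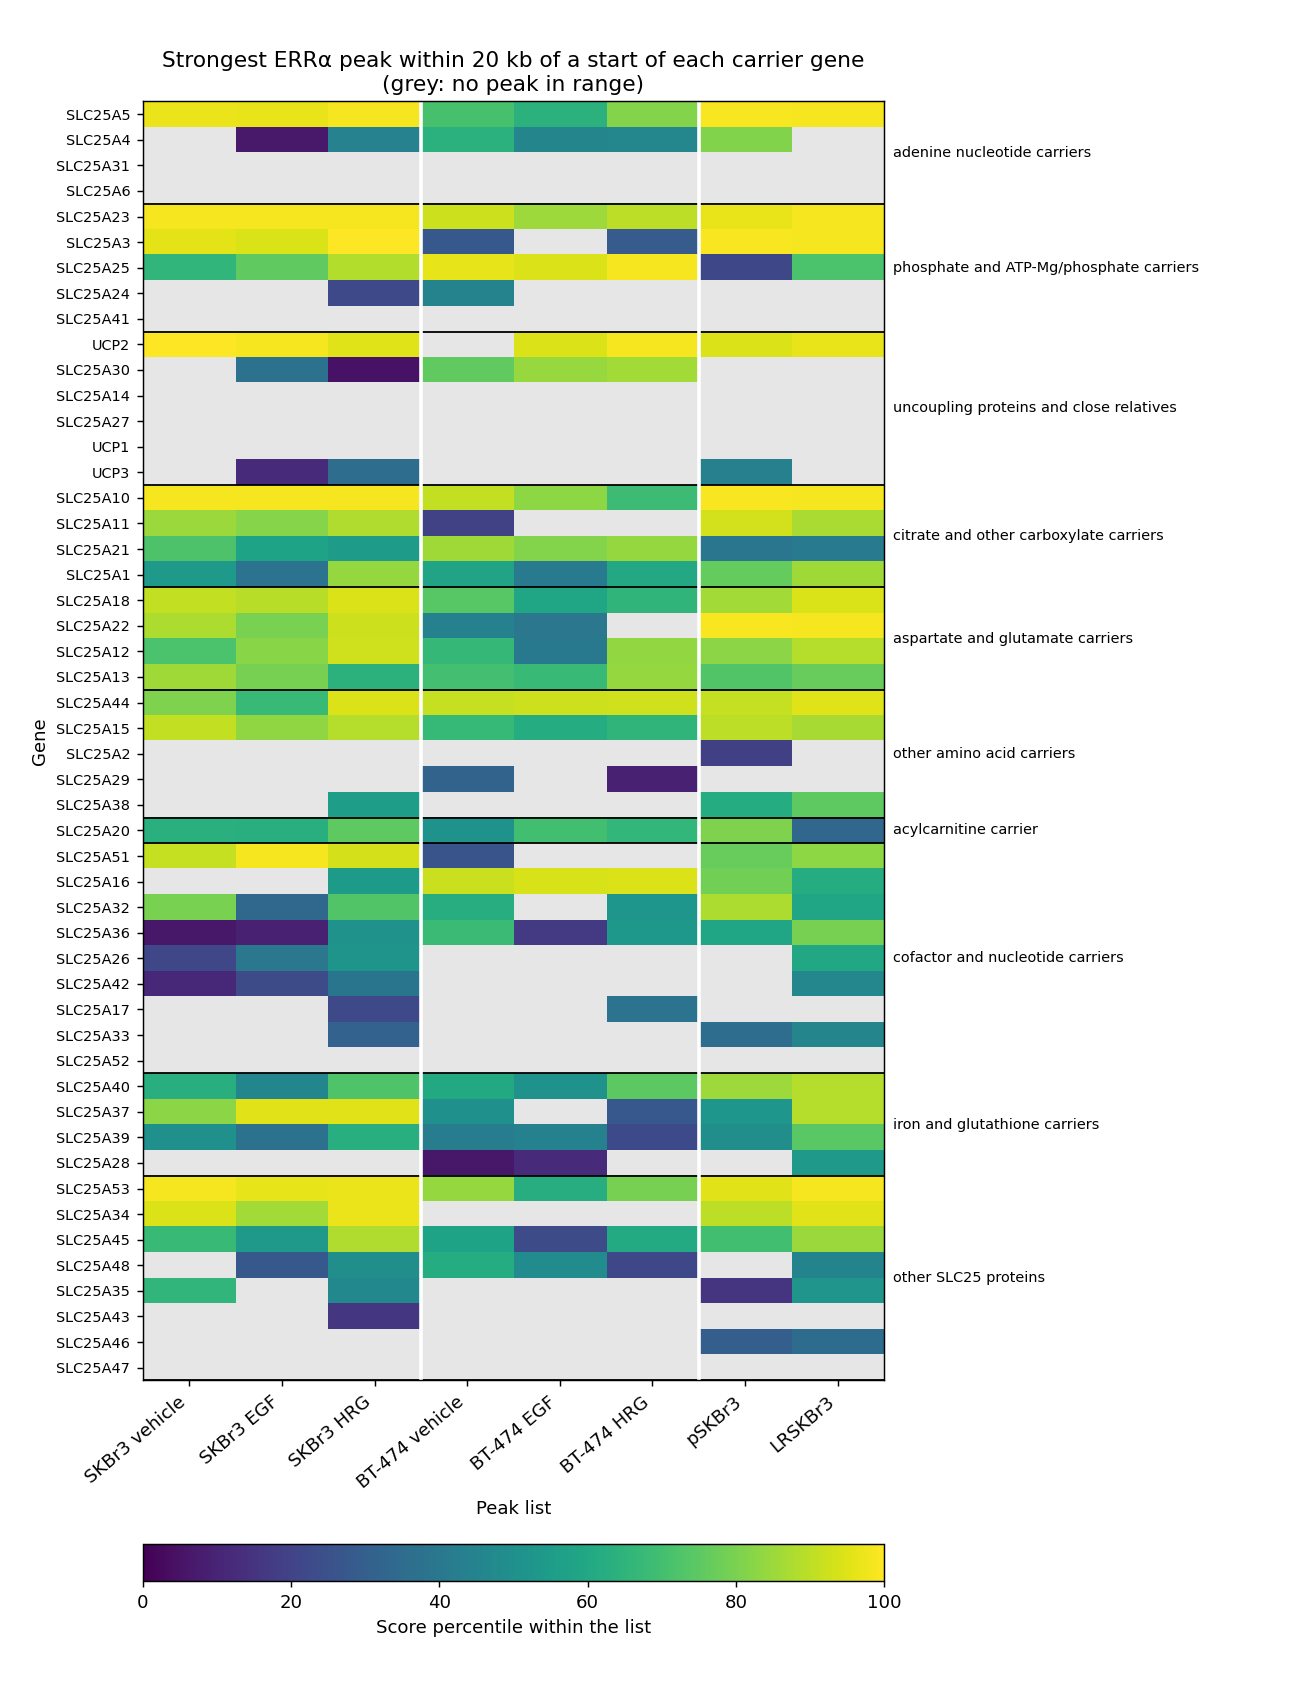
Score percentile, within its own list, of the strongest ERRα peak in range of 50 of the genes (rows, grouped by substrate) in each of the 8 peak lists (columns), where yellow is near 100, dark blue near 0 and grey means no peak in range. SLC25A23, SLC25A10, SLC25A5 and SLC25A53 are coloured in all 8 columns, UCP2 is grey in BT-474 vehicle alone, and the row of SLC25A25 is brightest in the 3 BT-474 columns.

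Among the adenine nucleotide carriers, which exchange ADP for ATP, SLC25A5 was the member bound everywhere. Its strongest peak, in an intron 66 to 397 bp from a start on chromosome X, stood at percentiles 96.9, 96.7 and 98.6 in SKBr3 vehicle, EGF and HRG, 70.9, 64.1 and 81.3 in BT-474 vehicle, EGF and HRG, 98.8 in pSKBr3 and 98.7 in LRSKBr3. The 3 BT-474 values were below the other 5. SLC25A4, the form of heart and muscle, had no peak in SKBr3 vehicle or LRSKBr3, stood at 6.68 with EGF and 44.2 with HRG in SKBr3 cells, at 64.0, 45.4 and 46.4 in the 3 BT-474 lists, and at 81.0 in pSKBr3. Its peaks lay 210 to 1005 bp from its start, and the list with the strongest of them, pSKBr3, is the parental partner of one of the lists without any.

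The peaks of the phosphate carriers ranged from strong to absent, and those of SLC25A3 differed in rank between the lines. SLC25A3, which brings in phosphate for ATP synthesis, stood at 95.8, 94.4 and 99.9 in SKBr3 vehicle, EGF and HRG, 98.8 in pSKBr3 and 98.7 in LRSKBr3, in each case in an exon 90 to 304 bp from a start. In BT-474 cells the peak near this start was at 27.4 with vehicle, was not called with EGF, and with HRG the only peak in range was 14752 bp away at 28.6. The SKBr3-derived and BT-474 lists did not overlap in rank.

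SLC25A23, SLC25A24, SLC25A25 and SLC25A41 are carriers that exchange ATP-Mg for phosphate, the first 3 of them under the control of calcium. The SLC25A23 peak, in an intron 536 to 1278 bp from a start on chromosome 19, stood at 98.6 in each of the SKBr3 lists, 92.5, 85.3 and 90.0 in BT-474 vehicle, EGF and HRG, 96.5 in pSKBr3 and 98.7 in LRSKBr3. The BT-474 values were again the lowest, and the peak carries the ERRE shown above. SLC25A25 had the opposite order of lines: its intronic peak, 9893 to 10428 bp from a start, stood at 96.3, 94.9 and 98.4 in BT-474 vehicle, EGF and HRG, against 65.8, 75.7 and 88.6 in SKBr3 vehicle, EGF and HRG, 21.6 in pSKBr3 and 71.6 in LRSKBr3. The pSKBr3 value was the lowest of the 8. SLC25A24 had a weak peak in 2 lists, at 22.2 in SKBr3 HRG (7716 bp from a start) and 44.8 in BT-474 vehicle (1222 bp).

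**Figure D3:**
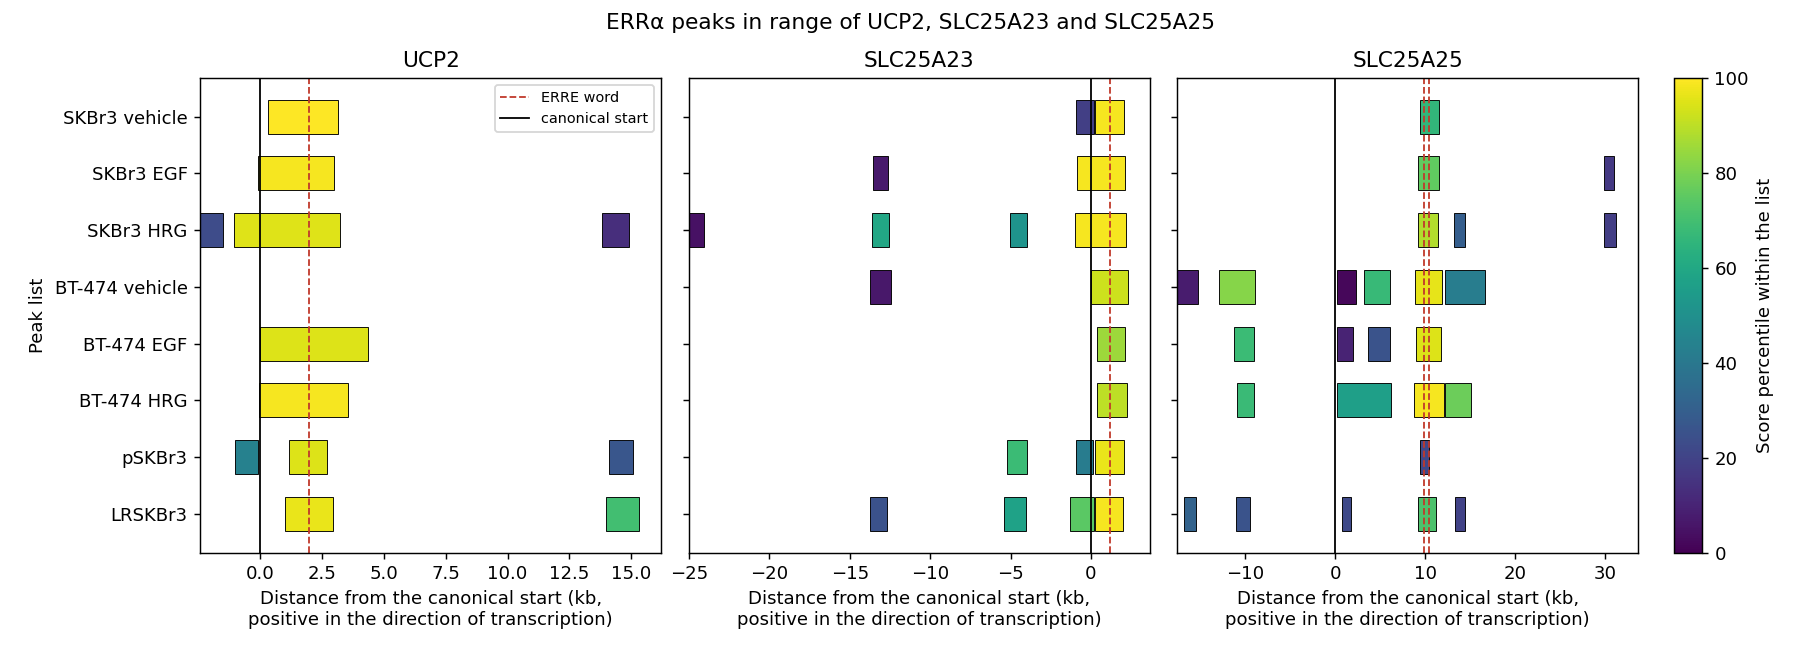
ERRα peaks in range of UCP2, SLC25A23 and SLC25A25 in the 8 peak lists (rows), drawn to scale by distance from the canonical transcription start in kb (x axis, positive in the direction of transcription, a different range in each panel). Boxes are peaks, coloured by score percentile within the list, and dashed red lines are ERRE words, the SLC25A25 panel holding 2. A strong box covers the UCP2 word in all lists but BT-474 vehicle, which has no box in that panel.

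Among the uncoupling proteins and their close relatives, UCP2 was the strongly bound gene. Its peak stood at 99.9, 98.6 and 95.3 in SKBr3 vehicle, EGF and HRG, 94.8 and 98.4 in BT-474 EGF and HRG, 94.8 in pSKBr3 and 96.5 in LRSKBr3. In SKBr3 vehicle it ran over chr11:73690730-73693580 with a score of 3200, above the 3100 that many strong peaks share. The BT-474 vehicle list had no UCP2 peak, and its nearest peak centre was 87578 bp from a UCP2 start. Of 3316 merged sites that 7 of the 8 lists called, 163 were missing from BT-474 vehicle, and the UCP2 site was the only 1 of these that stood at percentile 90 or more in each of the other 7 lists. Over all 8 lists, 3 sites met that description. Since the BT-474 vehicle list rests on 1 library, the missing peak has no replicate check.

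UCP1 had no peak in range. UCP3, the form of skeletal muscle, which lies next to UCP2, stood at 11.9 in SKBr3 EGF, 35.6 in SKBr3 HRG and 43.5 in pSKBr3. The first 2 of these peaks were in an intron of C2CD3 and the third was nearest to the start of UCP2, all between 16670 and 18877 bp from a UCP3 start. SLC25A30, a carrier related to the uncoupling proteins, had 1 intergenic site 16211 to 16403 bp from its start, at 75.6, 84.4 and 86.2 in BT-474 vehicle, EGF and HRG, 37.8 in SKBr3 EGF and 4.72 in SKBr3 HRG, and no peak in SKBr3 vehicle, pSKBr3 or LRSKBr3. All 3 BT-474 values were above the SKBr3 ones.

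All 4 carriers of citrate and other carboxylates had peaks in SKBr3-derived cells. SLC25A10, the dicarboxylate carrier, had the highest median rank of the 51 genes, at 98.6 in the 3 SKBr3 lists, 90.8, 83.2 and 68.5 in BT-474 vehicle, EGF and HRG, 98.8 in pSKBr3 and 98.7 in LRSKBr3. This strongest peak lies 8415 to 8920 bp from an SLC25A10 start, near the starts of MRPL12, a mitochondrial ribosomal protein gene, and of an annotated gene model (ENSG00000262660) that overlaps both loci. The peaks at the SLC25A10 start itself were weaker, at 74.7, 67.9 and 92.9 in SKBr3 vehicle, EGF and HRG, 47.8 in BT-474 vehicle, 61.4 in BT-474 HRG, 92.8 in pSKBr3 and 93.5 in LRSKBr3, with none in BT-474 EGF. SLC25A11, the oxoglutarate-malate carrier, shares its promoter with the divergent gene RNF167, whose start coincides with that of SLC25A11. Its peak stood at 85.1, 81.7 and 88.3 in SKBr3 vehicle, EGF and HRG, 93.0 in pSKBr3 and 87.2 in LRSKBr3, and at 19.6 in BT-474 vehicle, with none in BT-474 EGF or HRG. SLC25A1, the citrate carrier, stood between 38.1 (SKBr3 EGF) and 85.6 (LRSKBr3), but in 7 of the 8 lists the strongest peak was nearest to the start of CLTCL1, and no list had a peak within 1 kb of an SLC25A1 start. SLC25A21, the carrier of oxoadipate, stood at 72.2, 57.9 and 55.2 in SKBr3 vehicle, EGF and HRG, 85.9, 81.3 and 84.0 in BT-474 vehicle, EGF and HRG, 39.2 in pSKBr3 and 41.0 in LRSKBr3. The values of the SKBr3 and BT-474 lists belong to an intronic site 9172 to 11676 bp from a start, and those of pSKBr3 and LRSKBr3 to the site at the start, where the other lists stood between 22.3 (SKBr3 vehicle) and 52.3 (BT-474 vehicle).

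The aspartate and glutamate carriers work in the malate-aspartate shuttle and glutamate uptake. SLC25A12 was bound within 1 kb of a start in all 8 lists, at a site whose percentile ran from 28.4 (BT-474 EGF) to 92.6 (SKBr3 HRG). SLC25A13 was also bound in all 8, from 64.4 (SKBr3 HRG) to 85.6 (SKBr3 vehicle), but at several positions up to 13572 bp from a start. SLC25A18, a glutamate carrier, had 1 intergenic site, 4605 to 4855 bp from a start, that all 8 lists called, at 91.0, 89.2 and 94.8 in SKBr3 vehicle, EGF and HRG, 73.9, 59.2 and 65.4 in BT-474 vehicle, EGF and HRG, 86.0 in pSKBr3 and 94.3 in LRSKBr3. Again the 3 BT-474 values were the lowest. SLC25A22, the other glutamate carrier, stood at 87.7, 79.9 and 92.5 in SKBr3 vehicle, EGF and HRG, 43.97 and 39.7 in BT-474 vehicle and EGF, 98.8 in pSKBr3 and 98.7 in LRSKBr3, with none in BT-474 HRG. None of its 20 peaks was nearest to an SLC25A22 start, and they lay at CEND1, PIDD1 and GATD1 in a gene-dense stretch of chromosome 11.

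Of the other amino acid carriers, SLC25A44, which carries branched-chain amino acids, was the most evenly bound. It stood at 80.7, 67.3 and 94.8 in SKBr3 vehicle, EGF and HRG, 91.3, 92.2 and 93.0 in BT-474 vehicle, EGF and HRG, 91.2 in pSKBr3 and 94.9 in LRSKBr3, 29 to 1114 bp from a start. Here the lists of the lines overlapped. SLC25A15, the ornithine carrier, stood at 90.7, 83.2 and 89.0 in the SKBr3 lists, 66.8, 61.8 and 65.4 in the BT-474 lists in the same order, 90.0 in pSKBr3 and 86.8 in LRSKBr3, but near the start of MRPS31, 18282 to 18475 bp from its own. A site at the SLC25A15 start was called in SKBr3 HRG (69.2), pSKBr3 (63.3) and LRSKBr3 (36.7). SLC25A38, a glycine carrier needed for haem synthesis, was bound in SKBr3 HRG (56.1), pSKBr3 (61.7) and LRSKBr3 (75.1). SLC25A29, a carrier of basic amino acids, had weak peaks in BT-474 vehicle (31.9) and HRG (9.22). SLC25A2, a second ornithine carrier, had a weak peak in pSKBr3 (19.1). That peak lay in an exon of TAF7, 14 bp from the TAF7 start and 16557 bp from that of SLC25A2.

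SLC25A20, which brings acylcarnitines in for fatty acid oxidation, had a peak in range in all 8 lists, from 33.2 in LRSKBr3 to 80.6 in pSKBr3. In 6 lists the strongest was intronic, 1541 to 1684 bp from a start, and in SKBr3 EGF and pSKBr3 it was near ARIH2, 19894 and 19988 bp away. LRSKBr3 had a peak at the same ARIH2 site, but its centre lay beyond 20 kb and it was not counted. That peak stood at 89.7, with 4109 stronger peaks in the list, close to the 4361 stronger peaks of the shorter pSKBr3 list. By the strongest counted peak, SKBr3 vehicle, EGF and HRG stood at 63.5, 62.8 and 75.3 and BT-474 vehicle, EGF and HRG at 50.9, 69.6 and 66.0.

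The cofactor and nucleotide carriers varied between lists. SLC25A51, the carrier of NAD+, stood at 91.3, 98.6 and 93.4 in SKBr3 vehicle, EGF and HRG at an upstream site 4434 to 4477 bp from a start, and at 76.7 in pSKBr3 and 82.9 in LRSKBr3 at the start itself. Of the BT-474 lists only vehicle had a peak, at 25.8. SLC25A16, linked to coenzyme A supply, went the other way, with 92.1, 93.8 and 94.9 in BT-474 vehicle, EGF and HRG, 54.3 in SKBr3 HRG, 78.9 in pSKBr3, 62.0 in LRSKBr3 and no peak in SKBr3 vehicle or EGF. Its BT-474 peaks lay in an intron 1750 to 1850 bp from a start, and its SKBr3 HRG and pSKBr3 peaks 21 and 25 bp from one.

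SLC25A32, which carries folate, was bound within 248 bp of a start in the 7 lists other than BT-474 EGF, at 79.7, 33.4 and 72.9 in SKBr3 vehicle, EGF and HRG, 62.3 and 52.6 in BT-474 vehicle and HRG, 87.7 in pSKBr3 and 59.3 in LRSKBr3, at a promoter shared with DCAF13, whose start is 258 bp away. SLC25A36, a pyrimidine nucleotide carrier, was bound in all 8 lists, from 6.41 (SKBr3 vehicle) to 79.6 (LRSKBr3). These peaks lay at several sites, none of which was called in more than 4 lists. SLC25A33, its relative, was bound in SKBr3 HRG (31.5), pSKBr3 (35.8) and LRSKBr3 (45.6), each with a peak within 1 kb of its start. SLC25A42, a coenzyme A carrier, stood at 11.4, 23.3 and 39.0 in SKBr3 vehicle, EGF and HRG and at 46.4 in LRSKBr3. SLC25A26, which carries S-adenosylmethionine, stood at 21.1 and 39.6 in SKBr3 vehicle and EGF, at an intergenic site 17754 and 17722 bp from a start. In SKBr3 HRG and LRSKBr3 it stood at 51.7 and 59.7, at a different site 71 and 6 bp from a start. Neither gene had a peak in pSKBr3 or in BT-474 cells. SLC25A17, a member found in peroxisomes, had weak peaks in SKBr3 HRG (22.2) and BT-474 HRG (38.2).

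Iron enters the matrix through the mitoferrins SLC25A28 and SLC25A37, and glutathione through SLC25A39 and SLC25A40. SLC25A40 was bound within 1 kb of a start in all 8 lists. At the promoter it shares with DBF4, whose start is 127 bp away, it stood at 63.0, 45.7 and 72.5 in SKBr3 vehicle, EGF and HRG, 60.6 and 74.8 in BT-474 vehicle and HRG, 85.3 in pSKBr3 and 89.0 in LRSKBr3. The BT-474 EGF list had no peak there, and its peak at 50.9 lay in an intron, 699 bp from another start of the gene. SLC25A39 was bound in all 8, from 22.6 (BT-474 HRG) to 74.5 (LRSKBr3). SLC25A37 stood at 82.7, 95.4 and 95.4 in SKBr3 vehicle, EGF and HRG, 52.7 in pSKBr3 and 88.9 in LRSKBr3 at an intronic site 6279 to 6351 bp from a start, and at 50.2 and 27.7 in BT-474 vehicle and HRG. SLC25A28 had weaker peaks, at 6.55 and 11.95 in BT-474 vehicle and EGF and at 53.8 in LRSKBr3, the last of them 373 bp from a start.

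Of the members whose substrate is unknown or less certain, SLC25A53 was the most strongly bound. Its promoter peak on chromosome X, 37 to 297 bp from a start, stood at 98.6, 96.4 and 97.1 in SKBr3 vehicle, EGF and HRG, 84.2, 62.2 and 79.5 in BT-474 vehicle, EGF and HRG, 95.6 in pSKBr3 and 98.7 in LRSKBr3. SLC25A34 had a peak 716 to 963 bp from its start in each SKBr3-derived list, at 94.8, 86.2 and 97.2 with vehicle, EGF and HRG, 90.2 in pSKBr3 and 95.6 in LRSKBr3, and none in range in the BT-474 lists. SLC25A45 was bound in all 8 lists, from 23.1 (BT-474 EGF) to 88.2 (SKBr3 HRG). The first value belongs to an intergenic site and the second to a site in an intron of FRMD8, nearest to the FRMD8 start. The site at the SLC25A45 start was called in 7 lists, all but BT-474 EGF, and stood at 84.9 in SKBr3 HRG. SLC25A35 was bound in SKBr3 vehicle (65.9), SKBr3 HRG (46.6), pSKBr3 (15.3) and LRSKBr3 (52.0) and SLC25A46, an outer membrane protein of mitochondrial dynamics, in pSKBr3 (30.4) and LRSKBr3 (35.3). SLC25A43 had weak peaks in SKBr3 HRG alone, the stronger at 15.8. SLC25A48 was bound in SKBr3 EGF (27.7) and HRG (49.3), BT-474 vehicle (61.8), EGF (48.2) and HRG (21.9) and LRSKBr3 (45.3), but in no list when its canonical start alone was counted. All of these values but that of SKBr3 HRG belong to an intergenic site nearest to the start of TIFAB. The SKBr3 HRG peak was intronic, 905 bp from an SLC25A48 start.

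The median strength of the strongest peak, set beside that of all bound genes, differed between the lines. Single carriers went either way, with SLC25A16, SLC25A21, SLC25A25 and SLC25A30 ranked higher in the BT-474 lists. The median percentile over bound carriers was 80.7 in SKBr3 vehicle, against 71.6 over all bound genes, 73.4 against 68.2 with EGF and 75.3 against 72.6 with HRG. In pSKBr3 cells it was 80.8 against 70.7 and in LRSKBr3 cells 85.1 against 75.0. In BT-474 cells it was 62.3 against 65.6 with vehicle, 62.0 against 65.7 with EGF and 65.7 against 67.7 with HRG. Bound carriers thus had the higher median in the 5 SKBr3-derived lists and the lower one in the 3 BT-474 lists. Each BT-474 list rests on 1 ChIP library and the others pool 2, so line and library number cannot be told apart here. The closest peak of a bound carrier lay at a median of 153 bp (LRSKBr3) to 1662 bp (BT-474 EGF) from a start, and in each list this was nearer than for all bound genes (504 to 3741 bp).

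With growth factors, SKBr3 cells gained peaks at 4 to 10 carrier genes and lost 0 or 1. A gene is called gained when it had a peak in range with the treatment and none with vehicle, and lost in the converse case. EGF gained SLC25A4, SLC25A30, SLC25A48 and UCP3, 4 genes (7.84%, background 7.76%), and lost SLC25A35 (1.96%, background 5.63%). The gains on EGF numbered 2 (3.92%) with 10 kb, with peaks of a P value of at most 1e-10 and with lists of equal size, against 6.92%, 7.01% and 6.65% of all genes. HRG gained 10 genes (background 16.5%), namely SLC25A4, SLC25A16, SLC25A17, SLC25A24, SLC25A30, SLC25A33, SLC25A38, SLC25A43, SLC25A48 and UCP3, and lost 0 (background 4.31%). The 10 are 19.6% of the carriers, near the share of all genes. Their peaks on HRG were of low to middle rank, from 4.72 to 56.1 with a median of 33.5, and 6 had a score under 100, where 50 is the lowest in the lists. With lists of equal size, 6 genes were gained on HRG, 11.8% against 13.9% of all genes.

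In BT-474 cells with EGF, carriers were gained and lost at shares near those of all genes. EGF gained UCP2 alone (1.96%, background 3.04%) and lost 8 genes (15.7%, background 13.7%), among them SLC25A3, SLC25A11, SLC25A24, SLC25A29, SLC25A32, SLC25A37 and SLC25A51. Their vehicle peaks stood between 19.6 and 62.3, and the BT-474 EGF list is also the shortest of its line, with 26832 peaks against 32259 with vehicle. With lists of equal size, 5 genes were lost, 9.80% against 8.47% of all genes. HRG gained SLC25A17 and UCP2 (3.92%, background 8.22%) and lost SLC25A11, SLC25A22, SLC25A24, SLC25A28 and SLC25A51 (9.80%, background 5.88%). The HRG list is longer than that of vehicle, with 41271 peaks. With lists of equal size, HRG gained 1 gene (1.96% against 4.18% of all genes) and lost 7 (13.7% against 7.57%). The EGF and HRG comparisons share the BT-474 vehicle list, and the gain of UCP2 in both rests on its missing peak there.

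In LRSKBr3 against pSKBr3 cells, 4 carriers were gained, SLC25A26, SLC25A28, SLC25A42 and SLC25A48 (background 14.7%), and 3 were lost, SLC25A2, SLC25A4 and UCP3 (background 1.84%). The gains are 7.84% of the carriers and the losses 5.88%. The gained peaks stood between 45.3 and 59.7, and the lost ones at 19.1, 81.0 and 43.5. Of the lost peaks, that of SLC25A2 lay in an exon of TAF7, 14 bp from the TAF7 start. That of UCP3 belonged to the merged site at the UCP2 start, which LRSKBr3 still called at 96.5. The LRSKBr3 list holds 39777 peaks against 22539, and the setting changed the position of the carriers relative to all genes for the gains and the size of their excess for the losses. With lists of equal size 4 genes were gained (7.84% against 5.51% of all genes) and 6 lost (11.8% against 6.83%), and with peaks of a P value of at most 1e-10, 8 were gained (15.7% against 15.8%) and 3 lost (5.88% against 1.36%). With 10 kb, 1 carrier was lost, 1.96% against 1.84% of all genes. SLC25A4 was the only lost gene with a peak within 1 kb of a start.

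Between the lines on vehicle, BT-474 cells gained 7 carriers over SKBr3 cells (background 12.2%), SLC25A4, SLC25A16, SLC25A24, SLC25A28, SLC25A29, SLC25A30 and SLC25A48. They lost 5 (background 13.3%), SLC25A26, SLC25A34, SLC25A35, SLC25A42 and UCP2. The gained genes ranged in BT-474 cells from 6.55 (SLC25A28) to 92.1 (SLC25A16) and the lost ones in SKBr3 cells from 11.4 (SLC25A42) to 99.9 (UCP2). The cell line and the number of ChIP libraries differ together here and cannot be told apart.

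**Figure D4:**
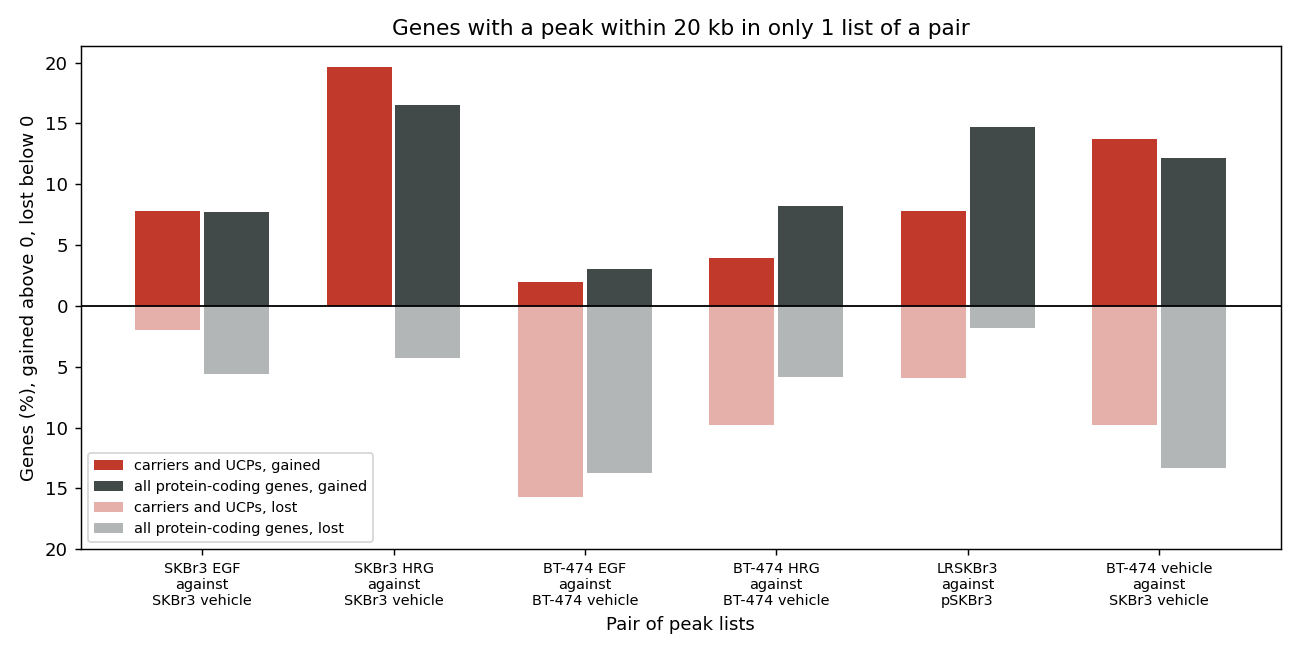
Percentage of genes (y axis) with a peak within 20 kb of a start in the first list of a pair and not in the second (gained, bars above 0) or the reverse (lost, bars below 0), for the 6 pairs of lists (x axis). Red bars are the 51 carriers and uncoupling proteins and grey bars all protein-coding genes. Gained carriers reach 19.6% in SKBr3 HRG beside 16.5% of all genes, and the gained bar of LRSKBr3 against pSKBr3 is 7.84% beside 14.7%.

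When overlapping peaks of the 8 lists were merged, 140 sites lay in range of the 51 genes. The nearest protein-coding start belonged to the carrier itself at 100 of them and to another gene at 40. The sites called by all 8 lists numbered 14, or 10.0% against 7.10% of the 90452 sites of the genome, and those called by a single list 36, or 25.7% against 41.6%. Of the 14, 11 were nearest to the carrier, at SLC25A5, SLC25A10, SLC25A12, SLC25A13 (2 sites), SLC25A18, SLC25A21, SLC25A23, SLC25A25, SLC25A44 and SLC25A53. The remaining 3 were nearest to MRPS31 (SLC25A15), CLTCL1 (SLC25A1) and MRPL12 with its overlapping gene model (SLC25A10).

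The share of carrier peaks with the ERRE was above that of all peaks in SKBr3 vehicle and below it in the other 7 lists. In SKBr3 vehicle 5 of 55 peaks near carriers held it (9.09%, Wilson 95% interval 3.95 to 19.6%) against 7.43% of all peaks of the list, and in LRSKBr3 cells 4 of 93 (4.30%, interval 1.69 to 10.5%) against 7.40%. Over the 8 lists the share near carriers ran from 3.51 to 9.09% and that of all peaks from 5.57 to 8.10%. The shorter word AAGGTCA was held by 17.5% (BT-474 vehicle, 21.7% of all peaks) to 31.4% (BT-474 EGF, 22.1% of all peaks) of carrier peaks, a share below that of all peaks in SKBr3 HRG, BT-474 vehicle and pSKBr3 and above it in the other 5 lists. The words TGACTCA and TGAGTCA, to which AP-1 factors bind and which are each other's reverse complement, occurred at 13 positions near 11 of the 43 carriers (25.6%, against 29.96% of all genes with a peak). With EGF in SKBr3 cells 5 of 58 carrier peaks held one (8.62%, interval 3.74 to 18.6%) against 12.7% of all peaks. These counts of 1 to 7 peaks per list are too small to order the lists.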

How the data were processed

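The 8 ERRα ChIP-seq peak lists, made from 19 libraries, were used. Per the labels and the study's methods, the authors aligned reads to hg19 (GRCh37) with BWA 0.5.9, used SAMtools 0.1.18, and called peaks with MACS against input with 1e-05 as the P threshold. Peak scores in the deposited lists are −10 log10 P, as the authors' caller wrote them. All 8 score columns were used (columns left out: 0), and a score was read only as a percentile within its list, since it grows with depth, which is unknown.

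Transcription starts were those of all transcripts of the 20144 protein-coding genes of GENCODE release 44 lifted to GRCh37, without mitochondrial genes and pseudoautosomal copies on the Y chromosome. A gene was bound when a peak centre lay within 20 kb of a start (1 kb for the near count), and peaks overlapping by at least 1 bp formed a site. The members and gene lists were chosen with earlier results of these data known. Values per list are given for the 12 members with the highest median percentile, those bound in 1 to 7 lists, the uncoupling proteins and the top member of each functional class, and the unbound are named. SLC25A21 and SLC25A25 are also given per list, a choice made after their values were seen, and the other members bound in all 8 lists are given by their range. The values of 1 member are not reported here, but it is counted in the totals. Words were sought within 100 bp of peak centres.

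Each list is 1 set of peaks, from 1 library or from pooled libraries, so no test was made. Wilson intervals at 95% cover counting error only. Alternatives concerned the distance, the starts counted, the P threshold (1e-10), lists of equal size (the 22539 strongest peaks), the overlap and the words. The count from the canonical start alone, the count without BT-474 lists and the GC-rich background were added after seeing the data. Assignment, merging and the word search were tested on simulated data. Python 3.11.15, numpy 2.4.6, scipy 1.17.1, pysam 0.24.0, matplotlib 3.10.9 and samtools 1.23.1 were used.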

Additional observations from a re-analysis of the deposited data

Results flagged for a closer look

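SLC25A24, an ATP-Mg/phosphate carrier, moved in opposite directions with HRG in the 2 cell lines. In SKBr3 cells it had no peak in range with vehicle and one with HRG at percentile 22.2, whereas in BT-474 cells it had one with vehicle at percentile 44.8 and none with HRG. The peaks lie at different positions, 7716 and 1222 bp from a start. The difference was not tested, since each condition has 1 list.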

How the results depend on the processing

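Of 222 values under alternative settings, 188 stayed within the spread allowed (counts within 1.5 times of the value reported, shares within their interval) and 34 moved. Against all genes, the share of carriers with a peak in range turned from below to above under all 6 alternatives in BT-474 HRG and under 5 of 6 in LRSKBr3, and stayed above in the other lists, but among GC-rich starts it was below in BT-474 HRG, LRSKBr3 and pSKBr3. Counts are followed by the share of all genes at the same setting. With peaks of P at most 1e-10, 10 carriers were bound in all 8 lists (18.7%), 2 were gained (7.01%) and 2 lost (6.08%) in SKBr3 EGF, 8 were gained in LRSKBr3 (15.8%), and 10 were bound within 1 kb in BT-474 vehicle (14.04%). With lists of equal size, 2 were gained in SKBr3 EGF (6.65%), 6 in SKBr3 HRG (13.9%) and 1 in BT-474 HRG (4.18%), 5 were lost in BT-474 EGF (8.47%) and 6 in LRSKBr3 (6.83%), and 10 were bound within 1 kb in BT-474 vehicle (14.4%). With 10 kb, 2 were gained in SKBr3 EGF (6.92%) and 1 in BT-474 HRG (7.39%), and 1 was lost in LRSKBr3 (1.84%). Counting any part of a peak, 2 were gained in BT-474 EGF (3.04%). With the outermost start alone, 2 were lost in SKBr3 EGF (6.13%) and 1 in SKBr3 HRG (4.86%), and 4 (6.17%) and 8 (9.29%) were bound within 1 kb in BT-474 EGF and HRG. With the canonical start alone, 2 were lost in SKBr3 EGF (6.17%) and 5 were bound within 1 kb in BT-474 EGF (6.25%). Without the BT-474 lists, 26 carriers were bound in all lists (41.7%). With the word AAGGTCA the share of carrier peaks was 29.1, 27.6 and 18.8% in SKBr3 vehicle, EGF and HRG, 17.5, 31.4 and 26.8% in BT-474 vehicle, EGF and HRG, 21.5% in pSKBr3 and 26.9% in LRSKBr3. Within 50 bp of the centre, the ERRE share in BT-474 vehicle was 0%, and the AP-1 share 1.98% in SKBr3 HRG and 0% in BT-474 vehicle and LRSKBr3. Apart from the shorter lists and words of the alternatives themselves, the cause was not tested. No paired analysis was possible because the 5 SKBr3-derived lists pool their libraries and the 3 BT-474 lists have 1 library each, so that no replicate could be left out either. Depth is unknown and scores carry no replicate error.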
